A study of Mus musculus with 22 samples.

Results

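The response of CYP1B1-/- lung epithelial cells (ECs) to house dust mite (HDM) allergen was described from 7 of the 22 sequenced libraries: 4 libraries from HDM-exposed CYP1B1-/- mice, numbered 1 to 4, and 3 libraries from CYP1B1-/- mice at steady state, numbered 2 to 4. The genes were chosen by class and position and not by their values: all protein-coding genes outside chromosomes X and Y, 20694 of the 54373 genes listed, of which 16107 had enough reads to be tested. CYP1B1-/- mice lacked Cyp1b1 from the germline and had been backcrossed to C57BL/6. Mice of both sexes older than 7 weeks were used. They were sensitized to a Dermatophagoides farinae extract at 50 µg/ml by the intranasal route, and from 8 days later were challenged on 4 days with 500 µg/ml, whereas steady-state mice were untreated. After HDM the lungs were collected 72 h after the last instillation, and live single CD45-EpCAM+ cells, per the study also CD31-, were sorted from digested lung, a gate that takes alveolar and airway epithelium together. The 4 HDM and 4 steady-state libraries of wildtype (WT) mice from the same tables served for comparison.

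HDM carries proteases and microbial products that act on the airway epithelium, which answers with alarmins such as IL-33 and, under IL-4 and IL-13 signalling through STAT6, with mucus, chitinase-like proteins and chemokines that draw eosinophils, T cells and dendritic cells. CYP1B1 is a cytochrome P450 of the aryl hydrocarbon receptor (AhR) battery, and its relatives CYP1A1 and CYP1A2 degrade AhR ligands. In the alveolus, flat type 1 cells form the gas exchange surface, and type 2 cells make surfactant and give rise to new type 1 cells after injury.

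Total counts ranged from 11656527 to 15654352 at steady state and from 10133981 to 13926848 after HDM. A predicted gene, Gm10800, took 13.02% to 29.2% of the counts at steady state, 64.6% and 68.2% in HDM libraries 1 and 2, and 16.1% and 23.6% in HDM libraries 3 and 4, so the first pair held far fewer informative reads. State and sequencing run coincided, and so did the sex-linked transcripts: the Y-linked gene Ddx3y had 19.9 to 93.9 CPM at steady state and no read after HDM, while Xist had 0.72 to 2.01 CPM at steady state and 95.6 to 124 CPM after HDM. The effects of HDM, run and sex on the difference cannot be told apart. Cyp1b1 reads were not reduced in the libraries labelled CYP1B1-/-. On this gene lay 51, 114 and 100 reads in steady-state libraries 2, 3 and 4 and 47, 47, 99 and 88 in HDM libraries 1, 2, 3 and 4. Its mean was 5.19 ± 1.33 CPM at steady state against 1.17 CPM in WT (mean ± SD over the 3 or 4 libraries of a group). CPM are counts scaled to each library's TMM-adjusted total. Every library labelled CYP1B1-/- lay above every WT library, with a lowest value of 3.66 CPM against a highest of 2.37 CPM in WT. Reads were summed over all exons, so a transcript without its targeted exons would still be counted, and the libraries are called here as they were labelled.

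HDM-exposed and steady-state ECs labelled CYP1B1-/- differed at 5370 genes, 33.3% of the 16107 tested, by edgeR's quasi-likelihood test at a Benjamini-Hochberg adjusted p of 0.05. Of these, 2529 (15.7% of the tested genes) were higher and 2841 (17.6%) lower after HDM. All 4 HDM libraries lay above all 3 steady-state libraries at 2300 genes (14.3%) and below them at 2726 (16.9%), together 31.2% of the tested genes. The increases were the larger: 559 genes rose and 19 fell by at least 4 on the log2 scale, and 168 rose by at least 6, whereas no gene fell that far. The median log2 fold change over all tested genes was -0.02. Scaling the libraries on epithelial markers instead moved that median to 0.36 and turned the split to 2541 higher and 1208 lower genes, 67.8% higher against 47.1%. With HDM libraries 3 and 4 left out the count was 4592, with 34.0% higher, and with libraries 1 and 2 left out it was 5590, with 60.4% higher. In a fit that carried the mean level of hematopoietic markers as a covariate, 55 genes were called. In one with a flag for the Y-linked gene Ddx3y, set where it passed 1 CPM, 241 were called. Neither the score nor the flag overlapped between the 4 HDM and the 3 steady-state libraries. Over all 22 libraries of the fit the states overlapped in both. The flag varied within a single group, the HDM-exposed AhR-/- libraries. There Ddx3y was at 0.037 and 0.088 CPM in libraries 1 and 2 and at 69.1 and 71.1 CPM in libraries 3 and 4. That fit separates state from the flag by these libraries alone.

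**Figure D1:**
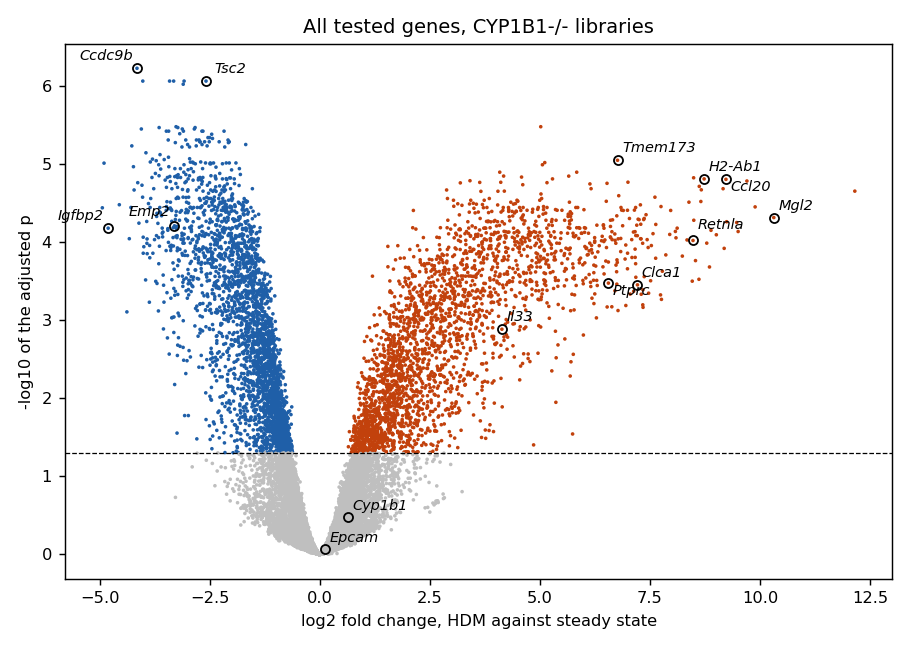
Log2 fold change after HDM (HDM minus steady state, horizontal axis) against -log10 of the adjusted p (vertical axis) for the 16107 tested genes of the libraries labelled CYP1B1-/-, 1 point per gene, with genes past an adjusted p of 0.05 (dashed line) in blue where lower and orange where higher, and some named. The 2529 higher genes reached further from 0 than the 2841 lower ones.

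Among the genes with the lowest p were decreases without overlap of the groups. Ccdc9b, a coiled-coil gene of little known function, had 43.2, 49.9 and 44.7 CPM in steady-state libraries 2, 3 and 4 and 2.60, 2.07, 1.19 and 4.28 CPM in HDM libraries 1, 2, 3 and 4, a log2 fold change of -4.15 (SE 0.35, adjusted p = 5.95e-07). Every HDM library was far below every steady-state one. Tsc2, which restrains mTORC1 as part of the tuberous sclerosis complex, fell from 181 ± 8.09 CPM to 30.1 ± 2.77 CPM (log2 -2.58, SE 0.24, adjusted p = 8.67e-07), with 28.2, 28.1, 34.04 and 29.98 CPM in the single HDM libraries. The 4 HDM libraries lay close together at this gene. Wnt9a, a secreted Wnt ligand, fell from 30.1 ± 14.3 CPM to 1.83 ± 0.698 CPM (log2 -4.02, SE 0.37), and Radil, an effector of the small GTPase Rap in cell adhesion, from 134 ± 6.57 CPM to 13.6 ± 4.995 CPM (log2 -3.32, SE 0.32). Tlr5, the receptor for flagellin, fell from 26.1 ± 6.34 CPM to 3.72 ± 1.03 CPM (log2 -2.85, SE 0.31). With the hematopoietic covariate Ccdc9b, Tsc2, Wnt9a and Radil kept their calls, and Tlr5 did not (log2 -1.52, adjusted p 0.103). Among the increases of lowest p, Tmem173, which encodes the DNA sensor adaptor STING, was at 0.861, 1.04 and 0.541 CPM at steady state and at 59.6, 33.1, 156 and 108 CPM after HDM, a log2 fold change of 6.76 (SE 0.81, adjusted p = 8.95e-06). It was lowest in HDM library 2 and highest in library 3.

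Transcripts of hematopoietic cells rose although CD45+ cells had been gated out. All 23 of 23 tested pan-hematopoietic markers rose, with a median log2 fold change of 6.25, against 15.7% of all tested genes that rose. Ptprc, which encodes CD45 itself, had 6.24, 2.23 and 3.79 CPM in steady-state libraries 2, 3 and 4 and 184, 26.9, 633 and 688 CPM in HDM libraries 1, 2, 3 and 4, a log2 fold change of 6.56 (SE 1.25, adjusted p = 0.000335). It was not at 0 at steady state, and HDM libraries 3 and 4 were far above library 2. The summed level of the list ranged from 120.5 to 168 CPM at steady state and from 485 to 8536 CPM after HDM. Over all 2529 genes that rose, 2.53%, 13.7%, 65.9% and 17.8% were highest in HDM libraries 1, 2, 3 and 4, and of the 23 markers 0 were highest in library 1 or 2. With libraries 3 and 4 left out 20 of the 23 were still called.

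Dendritic cell markers rose at 14 of 14 genes, with a median of 6.58. Mgl2, a lectin of type 2 dendritic cells and macrophages that shares 13.1% of its 50-base stretches with Clec10a, was at 0.502, 0.311 and 0.120 CPM at steady state and at 115, 5.03, 645 and 831 CPM after HDM (log2 10.31, SE 1.55, adjusted p = 4.85e-05). Cd209a, another lectin of monocyte-derived dendritic cells, went from 0.556 ± 0.128 CPM to 411 ± 498 CPM. Both were near 5 CPM in HDM library 2 and above 100 in libraries 1, 3 and 4. Macrophage and monocyte markers rose at 18 and fell at 1 of 25 genes, and Ctss, the lysosomal cathepsin S that trims the class II invariant chain, had 372, 128, 1538 and 1330.0 CPM after HDM against 2.65, 1.87 and 1.92 CPM (log2 8.61, SE 1.62, adjusted p = 0.000299).

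The lymphocyte lists were less complete. T and NK cell markers rose at 13 of 24 genes and B and plasma cell markers rose at 10 and fell at 1 of 17, but with HDM libraries 3 and 4 left out 4 rose in either list, with steady-state library 3 left out 7 and 6, and with steady-state library 4 left out 7 of the T and NK list. Jchain, the joining chain of secreted IgA and IgM, was at 0.861, 9.44 and 0.0601 CPM at steady state and at 82.1, 50.9, 582 and 1496 CPM after HDM (log2 7.30, SE 1.44, adjusted p = 0.000465). Immunoglobulin genes took 0.0022% to 0.0098% of the counts at steady state and 0.018% to 1.04% after HDM (exact permutation test over libraries, two-sided p = 0.171; the smallest possible is 0.0286). Granulocyte and mast cell markers rose at 4 and fell at none of 16 tested genes, by the edgeR test, and 2 of the 4 calls were left without HDM libraries 3 and 4, whereas 7 were made without steady-state library 2. Endothelial markers rose at 4 of 15, a count of 2 without HDM libraries 3 and 4 or without steady-state library 3 or 4, and no mesenchymal marker of 15 was called. Pecam1, which encodes the gated CD31, was at 2.22, 0.519 and 1.68 CPM at steady state and 4.46, 3.55, 11.2 and 14.4 CPM after HDM (log2 2.57, SE 0.68, adjusted p = 0.00522), all above, with adjusted p 0.179 without HDM libraries 3 and 4 and 0.417 with the hematopoietic covariate, at log2 fold changes of 1.45 and -1.17. The part of hematopoietic cells in the results that follow was not tested. In the fit with their marker score, where the median log2 fold change of all tested genes was -0.19, edgeR made calls in 9 of the 35 lists and none in the other 26. All hematopoietic cell lists above and the endothelial and mesenchymal lists were among the 26. Mgl2 was then at 2.45, Cd209a at 2.74, Ctss at 1.535 and Jchain at 1.64 (adjusted p 0.330, 0.451, 0.326 and 0.683). For the remaining lists the counts follow with each list.

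**Figure D2:**
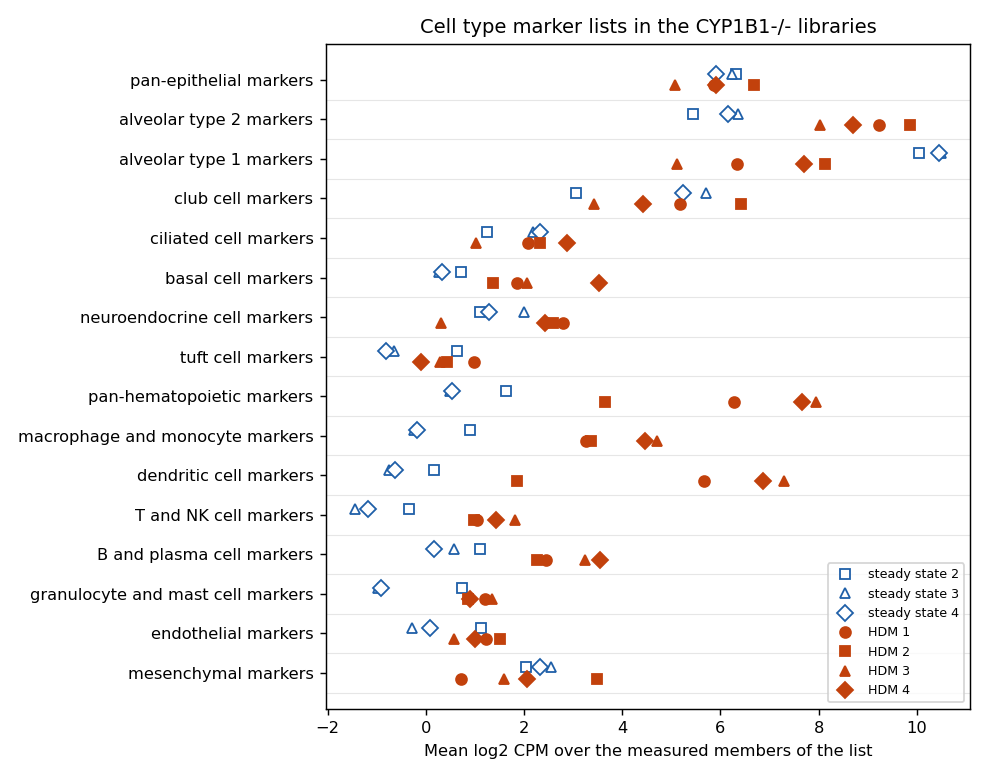
Mean log2 CPM (horizontal axis) of the measured members of 16 cell type marker lists (vertical axis) in the 7 libraries labelled CYP1B1-/-, 1 symbol per library, open and blue for steady state and filled and orange for HDM. The pan-hematopoietic mean was 3.65 in HDM library 2 and 7.94 in library 3, against 0.49 to 1.62 at steady state.

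Genes of the IL-4 and IL-13 response rose at 26, fell at 1 and were not called at 16 of 43 tested members, with a median log2 fold change of 2.32. Retnla, the secreted resistin-like molecule RELMα that epithelium and macrophages make under IL-4 and IL-13, had 0.215, 3.53 and 3.13 CPM in steady-state libraries 2, 3 and 4 and 1269, 1595, 362 and 91.0 CPM in HDM libraries 1, 2, 3 and 4. All HDM libraries stood above all steady-state ones, with libraries 1 and 2 the highest, and the log2 fold change was 8.48 (SE 1.39, adjusted p = 9.53e-05). Clca1, a secreted protein of mucus-producing goblet cells, went from 1.29, 0.311 and 0.722 CPM to 111, 326, 14.8 and 5.85 CPM in the same order of libraries (log2 7.22, SE 1.38, adjusted p = 0.000353). Its HDM levels spread over more than an order of magnitude, again with library 2 the highest and library 4 the lowest. Chil4, the chitinase-like protein Ym2, had 1.004, 0.467 and 0.842 CPM and then 93.6, 202, 24.1 and 13.3 CPM (log2 6.75, SE 1.29, adjusted p = 0.000345), and 11% of its 50-base stretches are shared with Chil3 and a pseudogene. Slc26a4, the anion exchanger pendrin, rose from 1.44 ± 0.940 CPM to 125 ± 67.96 CPM (log2 6.45, SE 1.06, adjusted p = 9.83e-05). The hematopoietic covariate left 3 of the list calls by edgeR, with 18 of the 43 at an unadjusted p under 0.05. The list median was then 2.05, and Slc26a4 was not among the calls left (log2 5.22, adjusted p 0.0526).

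The 2 promoter windows shown for the type 2 response are those of its named members that rose without overlap of the libraries and hold TTC and GAA with 4 bases between, the spacing STAT6 prefers. Each window runs from 250 bases before to 50 bases after the annotated start (RefSeq sequence, build GRCm38.p6), 5′ to 3′ on the gene's strand, with the match in capitals. Retnla lies on the plus strand of chr16:48842359-48842658, with the match at bases 106 to 115, and Ccl17 on the plus strand of chr8:94810203-94810502, with the match at bases 97 to 106.
Retnla: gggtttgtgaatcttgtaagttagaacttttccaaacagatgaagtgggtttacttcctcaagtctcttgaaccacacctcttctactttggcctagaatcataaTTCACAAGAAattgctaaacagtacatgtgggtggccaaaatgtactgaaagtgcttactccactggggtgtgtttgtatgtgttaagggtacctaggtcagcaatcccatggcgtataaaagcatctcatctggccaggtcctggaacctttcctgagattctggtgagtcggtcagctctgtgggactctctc
Ccl17: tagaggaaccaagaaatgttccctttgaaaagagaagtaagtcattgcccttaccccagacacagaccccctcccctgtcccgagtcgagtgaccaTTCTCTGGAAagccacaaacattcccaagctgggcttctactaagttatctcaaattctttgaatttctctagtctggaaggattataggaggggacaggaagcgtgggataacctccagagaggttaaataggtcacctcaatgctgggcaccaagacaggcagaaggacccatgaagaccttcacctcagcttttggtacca
This motif, read on both strands, occurred in 6.99% of 27025 such windows, so a match is a description of these letters and not a site of binding. The Ccl17 window also held GCGTG, the core letters of an AhR element, at bases 199 to 203, and GCGTG was in 32.5% of all windows.

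Ccl17, a ligand of CCR4 on Th2 cells, had 1 read in all 3 steady-state libraries together and 8803 in the 4 HDM libraries, a ratio of 9840 after scaling (95% interval 1760 to 389000, which covers counting error only). Its HDM levels were 68.7, 5.33, 306 and 151 CPM, lowest in library 2, where Retnla and Clca1 were highest. Ccl22, the other CCR4 ligand and its neighbour on chromosome 8, was at 0.430, 0.104 and 0.301 CPM at steady state and at 149, 3.55, 531 and 364 CPM after HDM (log2 9.89, SE 1.41, adjusted p = 3.54e-05). Both genes are also on the dendritic cell list, and both were lowest in HDM library 2, as Ptprc was. Their log2 fold changes with the hematopoietic covariate were 4.58 and 3.00 (adjusted p 0.0591 and 0.292), and those of Retnla and Clca1 8.90 and 8.88 (adjusted p 0.023 and 0.023).

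Mucus genes also varied widely between HDM libraries. Muc5ac, the inducible airway mucin, had 3.23, 0.467 and 0.361 CPM at steady state and 11.1, 29.6, 2.28 and 1.21 CPM after HDM, so the groups overlapped (log2 2.97, SE 1.03, adjusted p = 0.0301). Muc5b, the constitutive airway mucin, had 4.95, 3.53 and 1.503 CPM at steady state and 12.4, 45.6, 2.59 and 2.23 CPM after HDM (log2 2.17, SE 0.79, adjusted p = 0.039), and Spdef, the goblet cell transcription factor, 0.359, 0.207 and 0.301 CPM and 2.04, 3.25, 0.830 and 0.362 CPM (log2 2.32, SE 0.86, adjusted p = 0.04). HDM library 2 was the highest at all 3 genes, and without it none of them was called, nor without steady-state library 3 or 4. In the fit without HDM libraries 1 and 2 Muc5b had a log2 fold change of -0.35 and was not called (adjusted p 0.712), and 17 of the 43 list members were called higher. The count was also 17 without steady-state library 3 and 15 without steady-state library 4. Stat6 itself was at 103 ± 22.3 CPM and 88.1 ± 41.7 CPM (log2 -0.22, SE 0.33, adjusted p = 0.68), and Il4ra, the shared receptor chain, at 36.04 ± 5.44 CPM and 52.6 ± 23.5 CPM (log2 0.55, SE 0.50, adjusted p = 0.462), neither of them called. The decrease on the list was Tgm2, a transglutaminase, which fell from 412 ± 21.3 CPM to 55.6 ± 19.4 CPM (log2 -2.89, SE 0.36, adjusted p = 9.46e-06), with 21.8% of its exon length under a gene on the other strand.

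**Figure D3:**
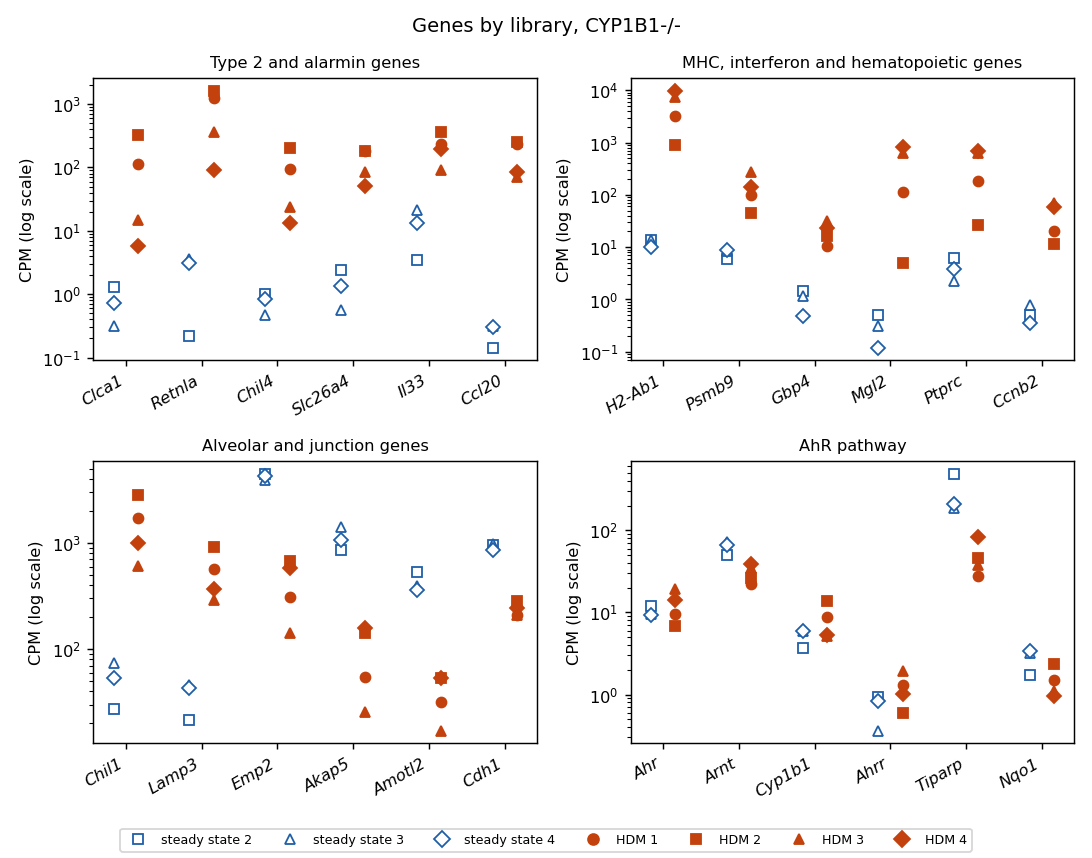
CPM on a log axis (vertical) of 24 genes in 4 panels, for the 7 libraries labelled CYP1B1-/-, 1 symbol per library, open and blue for steady state and filled and orange for HDM. HDM library 2 is the highest at Retnla, with 1595 CPM, and the lowest of the HDM libraries at Ptprc, with 26.9 CPM.

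Alarmins and the interleukin-1 family rose at 10 and fell at 3 of 20 tested genes, against 15.7% and 17.6% of all tested genes. The share that fell was thus not above that of all genes. Il33, the alarmin that activates ILC2 and Th2 cells through ST2, was at 3.52, 20.95 and 13.2 CPM at steady state and at 233.7, 369, 92.0 and 193 CPM after HDM, all above, with a log2 fold change of 4.14 (SE 0.92, adjusted p = 0.0013). It is also on the alveolar type 2 list and, like 15 of the 16 called members of that list, was highest in HDM library 2. Il1b, the inflammasome-processed cytokine of myeloid cells, was at 1.65, 0.415 and 0.120 CPM and 11.7, 3.25, 64.8 and 27.4 CPM (log2 5.27, SE 1.37, adjusted p = 0.00446), highest in libraries 3 and 4, and it was not called without HDM libraries 3 and 4 (adjusted p 0.0787). Il1rl1, the receptor ST2, had 5.75, 3.25, 12.8 and 37.1 CPM after HDM against 1.09 to 2.01 CPM (log2 3.29, SE 0.68, adjusted p = 0.000663), with the same loss (adjusted p 0.0563). With the hematopoietic covariate the log2 fold changes of Il1b and Il1rl1 were -2.46 and -0.05, and no list member was called by edgeR (5 of 20 at an unadjusted p under 0.05). Il33 was at 3.13 (adjusted p 0.199). The 3 decreases were receptor genes. Il17re, a chain of the IL-17C receptor, fell from 158 ± 12.1 CPM to 15.3 ± 10.4 CPM (log2 -3.39, SE 0.49, adjusted p = 3.08e-05), Il18r1 from 227 ± 108 CPM to 52.04 ± 26.8 CPM (log2 -2.13, SE 0.42), and Il1r1 from 42.7 ± 3.38 CPM to 16.1 ± 6.96 CPM (log2 -1.41, SE 0.31). The alarmin Tslp had at most 9 reads in a library and Il25 at most 8, both below the filter.

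Chemokines and their receptors rose at 29 and fell at 1 of 43 tested genes, with a median of 3.55. Ccl20, the CCR6 ligand that airway epithelium makes on contact with HDM, was at 0.143, 0.311 and 0.301 CPM at steady state and at 231, 254, 71.2 and 83.4 CPM after HDM (log2 9.23, SE 1.19, adjusted p = 1.57e-05). The HDM levels were highest in libraries 1 and 2, where hematopoietic transcripts were lowest. It was among the 55 calls with the hematopoietic covariate (log2 9.42, adjusted p 0.0172) and the only one of the list. Cxcl10, the interferon-induced CXCR3 ligand, rose from 0.434 ± 0.158 CPM to 7.45 ± 3.24 CPM (log2 4.09, SE 0.53, adjusted p = 1.27e-05), and its highest HDM level, in library 3, was 11.99 CPM. In that fit it was not called (log2 2.50, adjusted p 0.109).

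MHC class II genes rose at 14 and fell at 2 of 19 tested genes, with a median of 6.53. H2-Ab1, the class II beta chain, had 13.6, 13.6 and 10.2 CPM in steady-state libraries 2, 3 and 4 and 3262, 894, 7539.6 and 9562 CPM in HDM libraries 1, 2, 3 and 4 (log2 8.73, SE 1.16, adjusted p = 1.55e-05). Library 2, with the least Ptprc, was still far above steady state. H2-Eb1, another beta chain, went from 5.22 ± 0.599 CPM to 2991 ± 2315 CPM (log2 9.16, SE 1.24, adjusted p = 2.07e-05), and Cd74, the invariant chain that also serves type 2 cells, from 59.8 ± 12.5 CPM to 5513 ± 3998 CPM (log2 6.53, SE 0.88, adjusted p = 1.77e-05). Of the 19, 3 were called with the hematopoietic covariate, and H2-Ab1 had a log2 fold change of 3.70 (adjusted p 0.023). Lgmn, an endosomal protease, was one of the 2 that fell, from 218 ± 50.9 CPM to 79.6 ± 26.9 CPM (log2 -1.45, SE 0.31, adjusted p = 0.000768), a call lost with scaling on epithelial markers (log2 -1.10, adjusted p 0.118).

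Class I presentation and the immunoproteasome rose at 17 and fell at none of 22 tested genes by the edgeR test, and interferon-response genes rose at 27 and fell at 2 of 42. Psmb8, an immunoproteasome subunit with 14.7% of its exon length under a gene on the other strand, was at 13.9, 19.9 and 20.7 CPM at steady state and at 231, 115, 545 and 405 CPM after HDM (log2 4.16, SE 0.62, adjusted p = 3.93e-05). Nlrc5, the transactivator of class I genes, rose from 1.56 ± 1.04 CPM to 36.8 ± 24.9 CPM (log2 4.58, SE 0.60, adjusted p = 1.47e-05). Tgtp1, an interferon-γ-induced GTPase, was at 0.359, 0.156 and 0.421 CPM and 15.8, 15.4, 25.5 and 14.96 CPM (log2 5.84, SE 0.75, adjusted p = 1.27e-05), but 81.2% of its 50-base stretches are shared with Tgtp2, so its reads could belong to either. Its HDM libraries 1, 2 and 4 lay within 1 CPM of each other. Zbp1, a sensor of Z-form nucleic acid, rose from 0.510 ± 0.266 CPM to 10.8 ± 7.16 CPM (log2 4.45, SE 0.65). Not all interferon genes moved this way: Ifit3, which blocks viral RNA, was at 37.4, 149 and 134 CPM at steady state and 6.50, 22.5, 11.1 and 42.2 CPM after HDM (log2 -2.37, SE 0.59, adjusted p = 0.00299), with overlap of the groups and 51.2% of its stretches shared with Ifit3b. Of the 27 increases, 25 were highest in HDM library 3 or 4, against 65.9% and 17.8% of all genes that rose. Without these libraries 20 rose and 5 fell, 4 fell without HDM library 4 or steady-state library 2, and with the hematopoietic covariate 1 was called, and 0 of the class I list by edgeR (7 of 42 and 5 of 22 at an unadjusted p under 0.05).

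The alveolar lists moved in opposite directions. Alveolar type 2 markers rose at 16 and fell at none of 18 genes by the edgeR test, with a median of 3.28, and alveolar type 1 markers fell at 15 of 16, with a median of -3.24. The summed type 2 level was 1418 to 4164 CPM at steady state and 10068 to 54816 CPM after HDM, and the type 1 level 30577 to 47584 CPM and 952 to 7360 CPM. Fewer cells of a type and less RNA per cell cannot be told apart in such bulk samples. Napsa, the aspartic protease that processes surfactant protein B, was at 19.2, 23.8 and 22.7 CPM at steady state and at 360.3, 423, 409 and 407 CPM after HDM (log2 4.19, SE 0.78, adjusted p = 0.000257), with 18.9% of its exon length under a gene on the other strand. Its 4 HDM libraries lay close together. Lamp3, a lysosomal protein of lamellar bodies, was at 21.3, 46.1 and 42.9 CPM and 568, 908, 288 and 372 CPM (log2 3.86, SE 0.82, adjusted p = 0.000815), and Chil1, a chitinase-like protein also known as BRP-39, rose from 51.6 ± 23.8 CPM to 1552 ± 990.5 CPM (log2 4.91, SE 0.97, adjusted p = 0.000419). Abca3, the lipid transporter of lamellar bodies, was not called, at 117 ± 25.3 CPM and 81.1 ± 33.9 CPM (log2 -0.53, SE 0.43, adjusted p = 0.397). Of the 16 increases, 15 were highest in HDM library 2, against 13.7% of all genes that rose. This library had the fewest hematopoietic reads. With libraries 1 and 2 left out 11 were called, and none passed with the hematopoietic covariate by edgeR (13 of 18 at an unadjusted p under 0.05, median 2.58). Napsa was then at 2.40, Lamp3 at 3.21 and Chil1 at 4.34 (adjusted p 0.198, 0.153 and 0.0940).

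Of the 15 type 1 decreases, 14 had no overlap between the groups. Emp2, a tetraspan membrane protein, had 4450.4, 3904 and 4269.5 CPM in steady-state libraries 2, 3 and 4 and 309, 674, 141 and 587 CPM in HDM libraries 1, 2, 3 and 4 (log2 -3.30, SE 0.52, adjusted p = 6.18e-05). Aqp5, the apical water channel, had 2636, 984 and 1063 CPM and 112.1, 293, 48.2 and 196 CPM (log2 -3.27, SE 0.54, adjusted p = 8.43e-05), and Igfbp2, a marker of mature type 1 cells, 4634, 1108 and 929.6 CPM and 33.97, 173.4, 11.99 and 99.7 CPM (log2 -4.81, SE 0.77, adjusted p = 6.63e-05). Library 3 was the lowest at all 3 genes and at 15 of the 15 called type 1 markers, against 40% of all genes that fell. Akap5, a kinase anchor, fell from 1117 ± 272 CPM to 94.7 ± 64.2 CPM (log2 -3.56, SE 0.58, adjusted p = 7.43e-05). Without HDM libraries 3 and 4 the count was 14 and without libraries 1 and 2 it was 15. None of the 15 passed with the hematopoietic covariate (Emp2 at -1.96, adjusted p 0.229), by edgeR, with 7 of the 16 markers at an unadjusted p under 0.05 and a median of -1.71.

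Pan-epithelial markers did not move as one. Epcam, the antigen used in the sort, was at 290.3, 138 and 152 CPM at steady state and 176, 148, 321 and 201 CPM after HDM and was not called (log2 0.13, SE 0.38, adjusted p = 0.86). Cdh1, the E-cadherin of adherens junctions, fell from 933 ± 56.3 CPM to 236 ± 35.4 CPM (log2 -1.98, SE 0.28, adjusted p = 2.42e-05), with all 4 HDM libraries between 208 and 282 CPM. Cldn4, a sealing claudin induced in injured alveoli, was at 0.646, 0.622 and 0.180 CPM and 12.99, 44.98, 10.5 and 13.4 CPM (log2 5.35, SE 0.94, adjusted p = 0.000168). Of the 10 markers 2 rose and 6 fell, and 2 fell when HDM libraries 3 and 4 were left out. Cldn4 alone was called with the hematopoietic covariate (adjusted p 0.0497). Predicted genes such as Gm10800 were left out of a ranking per kilobase of exon. Among the other coding genes the highest at steady state were Ager, a type 1 cell receptor, and Scgb1a1, the club cell secretoglobin, at 5979 and 5473 CPM per kilobase. After HDM it was the surfactant protein gene Sftpc at 10627, and all 3 were chosen after their values were seen.

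The airway lists are read against the 15.7% and 17.6% of all tested genes that rose and fell, and the club, ciliated and tuft counts lay near or below these shares. Club cell markers rose at 2 and fell at 1 of 14 genes (median 0.02), with 0 higher and 4 lower when HDM libraries 1 and 2 were left out, and 1 higher and 3 lower without HDM library 2 or without steady-state library 2. Cyp2f2, the club cell P450, was at 35.8, 319 and 256 CPM at steady state and 109, 244, 37.1 and 153 CPM after HDM (log2 -0.59, SE 0.57, adjusted p = 0.499). Steady-state library 2 and HDM library 3 were the lowest of their groups at Cyp2f2 and at Aldh1a1. Ciliated cell markers fell at 2 of 22, namely Tppp3, a tubulin-binding protein (log2 -2.41, SE 0.36, adjusted p = 3.83e-05), and the transcription factor Rfx2 (log2 -1.85, SE 0.39, adjusted p = 0.000728). Basal cell markers rose at 6 and fell at 1 of 10 genes (median 3.02). Krt15, a basal keratin, was at 0.502, 0.519 and 0.481 CPM and 7.05, 4.14, 2.54 and 24.01 CPM (log2 4.24, SE 0.96, adjusted p = 0.00154), and Ngfr, the low-affinity neurotrophin receptor, at 0.0519 to 0.502 CPM and 5.01, 1.48, 13.6 and 10.98 CPM (log2 4.95, SE 0.87, adjusted p = 0.000142). HDM library 4 was the highest at 5 of the 6, against 17.8% of all genes that rose. Neuroendocrine markers rose at 4 and fell at 1 of 11. Calca, which encodes calcitonin gene-related peptide, was at 2.80, 10.3 and 4.81 CPM at steady state and 25.4, 33.7, 4.41 and 26.7 CPM after HDM (log2 1.89, SE 0.51, adjusted p = 0.00535), so HDM library 3 lay among the steady-state values. Ddc, the decarboxylase that makes serotonin, was the decrease, from 20.1 ± 12.01 CPM to 3.36 ± 1.79 CPM (log2 -2.66, SE 0.53, adjusted p = 0.000447). The count of 4 was 2 without HDM libraries 1 and 2 and without steady-state library 2 or 4. Dclk1, a tuft cell kinase, was the single tuft marker called of 6 tested, from 5.45 ± 0.0764 CPM to 21.4 ± 10.6 CPM (log2 1.95, SE 0.53, adjusted p = 0.00593), a call not made without HDM libraries 1 and 2 (adjusted p 0.0669). No club, ciliated, basal, neuroendocrine or tuft marker was called by edgeR with the hematopoietic covariate, with 3, 3, 0, 3 and 1 at an unadjusted p under 0.05. The basal median was then 0.93, Ngfr was at 2.18 and Krt15 at 3.03 (adjusted p 0.46 and 0.358), while Calca was at 2.72, Dclk1 at 1.67, Ddc at -0.85, Tppp3 at -1.51 and Rfx2 at -0.83 (adjusted p 0.0940, 0.309, 0.658, 0.239 and 0.593).

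Junction genes mostly fell. Tight junction genes rose at 3 and fell at 20 of 32 (median -1.88), and adherens junction and desmosome genes rose at 2 and fell at 11 of 21 (median -1.05). Amotl2, an angiomotin of the Hippo pathway at junctions, was at 537, 396 and 359.9 CPM at steady state and 31.4, 52.97, 17.02 and 53.1 CPM after HDM, with no overlap (log2 -3.48, SE 0.38, adjusted p = 3.8e-06). Patj, a polarity scaffold, fell from 162 ± 17.96 CPM to 25.997 ± 10.7 CPM (log2 -2.65, SE 0.37). Arvcf, a catenin that binds cadherins, is on neither list and was named for its low p. It fell from 35.6 ± 7.92 CPM to 3.50 ± 1.59 CPM (log2 -3.41, SE 0.33, adjusted p = 8.67e-07). Jup, plakoglobin, fell from 231 ± 1.86 CPM to 52.9 ± 5.498 CPM, with 49.0, 60.96, 49.8 and 51.99 CPM in the single HDM libraries (log2 -2.13, SE 0.34, adjusted p = 6.68e-05). Amotl2 and Arvcf kept their calls with the hematopoietic covariate (adjusted p 0.0364 and 0.023), whereas Patj (log2 -1.31, adjusted p 0.227), Jup (log2 -2.12, adjusted p 0.0934) and Nectin1, below (log2 2.12, adjusted p 0.17), did not. In that fit 3 of 32 tight junction genes and by edgeR 0 of 21 adherens junction and desmosome genes were called, with 7 and 8 at an unadjusted p under 0.05. Of the 20 tight junction decreases 18 were lowest in HDM library 3, where 40% of all genes that fell were lowest. The 3 increases included Cldn4, above, and Cldn1, another sealing claudin, which was at 1.22, 4.62 and 1.80 CPM and 195, 6.21, 516 and 252 CPM (log2 6.56, SE 1.16, adjusted p = 0.00018). Cldn1 was lowest in HDM library 2, where Cldn4 was highest, and with the hematopoietic covariate its log2 fold change was 0.58. Nectin1, an adhesion molecule, rose evenly, to 12.1, 10.4, 10.8 and 9.59 CPM from 1.43, 0.985 and 1.08 CPM (log2 3.19, SE 0.53, adjusted p = 8.41e-05).

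Genes of the transitional state between type 2 and type 1 cells were divided, with 9 higher and 11 lower of 27 (median -0.50). Cdkn1a, the cell cycle inhibitor p21, rose from 6.69 ± 2.73 CPM to 57.6 ± 27.7 CPM (log2 3.11, SE 0.51, adjusted p = 8.06e-05), and Tnip3, an inhibitor of NF-κB signalling, from 4.07 ± 1.58 CPM to 92.1 ± 46.7 CPM (log2 4.50, SE 0.72, adjusted p = 7.19e-05). Krt7, a simple keratin, fell from 1553 ± 196 CPM to 206 ± 119.7 CPM (log2 -2.92, SE 0.47, adjusted p = 6.92e-05), and Hbegf, an EGF receptor ligand, from 269 ± 24.3 CPM to 34.9 ± 22.02 CPM (log2 -2.95, SE 0.47, adjusted p = 6.49e-05). All 4 calls were lost with the hematopoietic covariate, where Cdkn1a was at 1.25, Tnip3 at 1.66, Krt7 at -1.69 and Hbegf at -1.77 (adjusted p 0.381, 0.288, 0.235 and 0.227) and 1 list member was called.

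Antimicrobial and complement genes rose at 11 and fell at 2 of 28 tested genes. Lcn2, a siderophore-binding lipocalin, was at 2.15, 1.82 and 3.37 CPM at steady state and 523, 579, 221 and 96.1 CPM after HDM (log2 7.18, SE 1.28, adjusted p = 0.000189), and Pigr, the receptor that carries IgA across epithelium, at 2.01, 3.42 and 2.83 CPM and 111, 153, 65.0 and 31.5 CPM (log2 5.01, SE 0.87, adjusted p = 0.000152). At both genes HDM library 2 was the highest and library 4 the lowest, the reverse of Jchain. The list count was 7 without HDM libraries 1 and 2 and 6 without steady-state library 4, and 1 gene was called with the hematopoietic covariate, where Lcn2 and Pigr were at 6.18 and 5.11 (adjusted p 0.0672 and 0.0522).

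The AhR system, to which the deleted gene belongs, was called at shares near those of all tested genes, of which 15.7% rose and 17.6% fell. Of 16 tested genes 2 rose and 2 fell, with a median of 0.03, and 12 were not called. Ahr was at 12.1, 9.54 and 9.26 CPM at steady state and 9.65, 6.81, 19.4 and 14.1 CPM after HDM, with overlap (log2 0.31, SE 0.34, adjusted p = 0.559), and Arnt, its partner, fell from 62.9 ± 10.96 CPM to 30.6 ± 7.46 CPM (log2 -1.03, SE 0.24, adjusted p = 0.00181). The call at Arnt was lost with scaling on epithelial markers (log2 -0.64, adjusted p 0.413). Tiparp, an ADP-ribosyltransferase that is an AhR target and a brake on AhR, fell most: it was at 481, 185 and 207 CPM and 27.5, 46.5, 37.7 and 82.0 CPM (log2 -2.58, SE 0.45, adjusted p = 0.00012). Ahrr, the AhR repressor, was at 0.363 to 0.933 CPM and 0.592 to 1.92 CPM (log2 0.83, SE 0.67, adjusted p = 0.397), and Nqo1, a quinone reductase, at 2.75 ± 0.897 CPM and 1.48 ± 0.634 CPM (log2 -1.01, SE 0.40, adjusted p = 0.0578), neither called. The increases were Slc7a5, a tryptophan and kynurenine transporter, at 2.23, 2.66, 3.17 and 2.17 CPM after HDM (log2 2.04, SE 0.60, adjusted p = 0.01), and Ugt1a7c, a glucuronosyltransferase that shares 53.7% of its stretches with its Ugt1a neighbours (log2 2.71, SE 0.51). Slc7a5 was not called without HDM libraries 3 and 4 (log2 1.95, adjusted p 0.0512 by edgeR) or without steady-state library 3 or 4. No AhR list member was called by edgeR with the hematopoietic covariate (3 of 16 at an unadjusted p under 0.05), which put Ugt1a7c at 0.01, Slc7a5 at 0.79, Arnt at -0.95 and Tiparp at -2.07 (adjusted p 0.995, 0.729, 0.339 and 0.1995). Cyp1a1 had 11, 2 and 3 reads at steady state and 6, 3, 6 and 4 after HDM, and Cyp1a2 no more than 5 in a library. Both were below the filter and were not tested, and a modest change was not detectable at these counts.

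Tryptophan and kynurenine metabolism, a source of AhR ligands, rose at 7 and fell at 3 of 19 tested genes. Over all tested genes 15.7% rose and 17.6% fell, so the share that fell here was not above that of all genes. Kmo, kynurenine 3-monooxygenase, was at 1.08, 0.622 and 1.74 CPM at steady state and 80.4, 2.07, 296 and 247.3 CPM after HDM (log2 7.09, SE 1.24, adjusted p = 0.000157), Kynu, kynureninase, at 0.683 ± 0.383 CPM and 37.997 ± 30.8 CPM (log2 5.84, SE 0.91, adjusted p = 6.55e-05), and Haao, an enzyme further along the route to NAD, at 0.198 ± 0.202 CPM and 8.996 ± 6.98 CPM (log2 5.59, SE 0.95, adjusted p = 0.00012). All 7 increases were highest in HDM library 3, as were 65.9% of all genes that rose, and Kmo in library 2, at 2.07 CPM, was hardly above steady state. With the hematopoietic covariate the log2 fold changes of Kmo, Kynu and Haao were 0.11, 0.69 and 0.26, no list member was called by edgeR (2 of 19 at an unadjusted p under 0.05), and without HDM libraries 3 and 4 the list count was 4. Wars, the tryptophanyl-tRNA synthetase, fell from 150.3 ± 21.6 CPM to 48.1 ± 14.8 CPM (log2 -1.64, SE 0.31, adjusted p = 0.000238), a call lost with scaling on epithelial markers (log2 -1.23, adjusted p 0.0844), under which 1 of the 3 decreases was left.

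Other xenobiotic enzymes of club cells rose at 3 and fell at 11 of 37 tested genes, against 15.7% and 17.6% of all tested genes. Fmo5, a flavin monooxygenase, fell from 67.5 ± 4.37 CPM to 11.97 ± 5.36 CPM (log2 -2.47, SE 0.32, adjusted p = 1.41e-05), Por, the reductase that feeds electrons to P450 enzymes, from 157 ± 25.3 CPM to 53.03 ± 12.6 CPM (log2 -1.57, SE 0.30, adjusted p = 0.000258), and the glutathione transferase Gsta3 from 62.6 ± 38.2 CPM to 7.82 ± 6.06 CPM (log2 -3.01, SE 0.61, adjusted p = 0.000523). Its relative Gsta4 moved the other way, at 0.789, 10.2 and 7.82 CPM and 36.8, 61.3, 13.96 and 18.5 CPM (log2 2.35, SE 0.73, adjusted p = 0.0159), which did not pass without HDM libraries 1 and 2 (adjusted p 0.138). The count of 11 decreases was 7 under RLE, upper-quartile or epithelial marker scaling, without HDM libraries 3 and 4 or library 3 alone, and without steady-state library 3 or 4, and 6 without HDM library 1. By edgeR with the hematopoietic covariate 0 of 37 were called and 6 had an unadjusted p under 0.05, with Gsta3 at -1.78, Fmo5 at -2.18, Por at -1.20 and Gsta4 at 2.76 (adjusted p 0.43, 0.0924, 0.26 and 0.228).

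Genes of DNA replication and mitosis rose at 44 and fell at 1 of 47 tested genes, with a median of 4.07. Ccnb2, a mitotic cyclin, was at 0.502, 0.778 and 0.361 CPM at steady state and 20.2, 11.2, 69.7 and 58.1 CPM after HDM (log2 6.16, SE 0.82, adjusted p = 2.07e-05), and Tk1, a thymidine kinase of S phase, at 0.361 to 0.502 CPM and 10.95, 3.55, 23.7 and 15.7 CPM (log2 5.00, SE 0.71, adjusted p = 2.91e-05). Of the 44, 43 were highest in HDM library 3, where 65.9% of all genes that rose were highest. E2f1, a transcription factor that drives entry to S phase, was the exception and fell from 28.5 ± 5.58 CPM to 6.24 ± 1.21 CPM (log2 -2.17, SE 0.33, adjusted p = 3.9e-05). Without HDM libraries 3 and 4 the list count was 37 with a median of 2.72, and with the hematopoietic covariate none passed (Ccnb2 at 2.18, adjusted p 0.134), by edgeR, with 4 of 47 at an unadjusted p under 0.05.

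Lipid synthesis genes rose at 14 and fell at 8 of 41, against 15.7% and 17.6% of all tested genes. The share that fell was thus near that of all genes. Dgat2, which makes triglyceride, rose from 1.06 ± 0.593 CPM to 21.8 ± 15.7 CPM (log2 4.40, SE 0.70, adjusted p = 6.63e-05), and Fabp5, a fatty acid carrier, was at 1.08, 0.985 and 1.503 CPM and 111.6, 84.6, 133 and 52.1 CPM (log2 6.32, SE 1.08, adjusted p = 0.000133). Scd2, a stearoyl-CoA desaturase of lung, fell from 2969 ± 482 CPM to 235 ± 99.97 CPM (log2 -3.66, SE 0.46, adjusted p = 1.02e-05), and Pcyt1a, the rate-limiting enzyme of phosphatidylcholine synthesis, from 88.4 ± 24.8 CPM to 31.5 ± 5.17 CPM (log2 -1.49, SE 0.29, adjusted p = 0.000319), a call lost with scaling on epithelial markers (log2 -1.10, adjusted p 0.108). The 14 increases were 7 without HDM libraries 3 and 4, 9 without HDM library 3, 9 without steady-state library 3 and 8 without steady-state library 4. None of the 41 was called by edgeR with the hematopoietic covariate (11 at an unadjusted p under 0.05), which put Dgat2 at 0.81, Fabp5 at 3.82, Scd2 at -2.41 and Pcyt1a at -1.43 (adjusted p 0.664, 0.123, 0.0964 and 0.206).

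**Figure D4:**
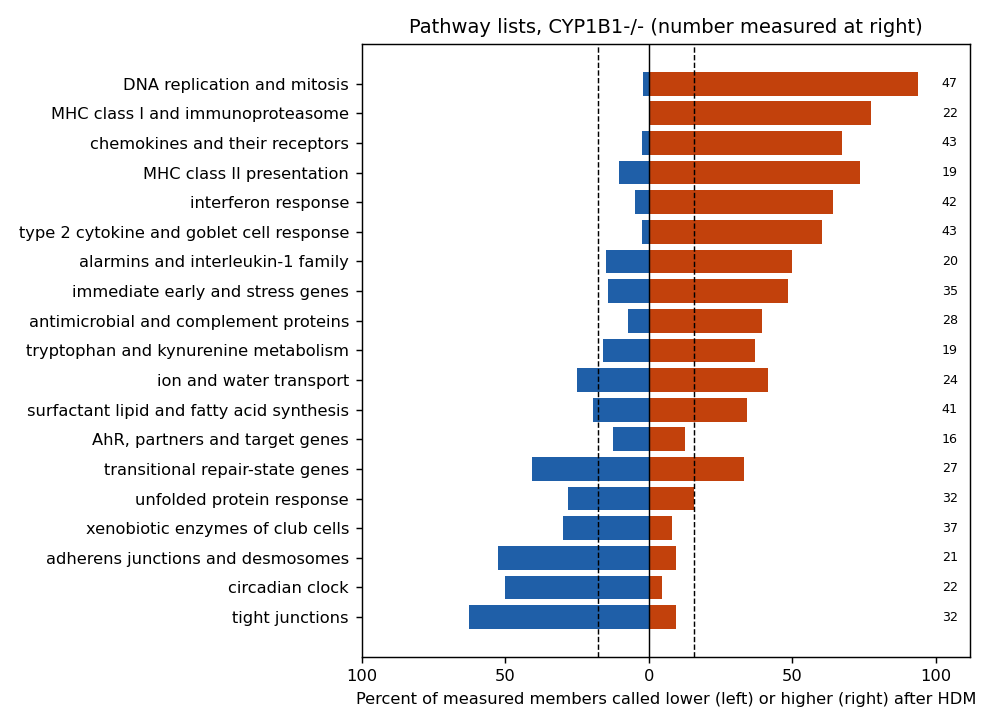
Share of the tested members of 19 pathway lists called lower (left, blue) or higher (right, orange) after HDM in the libraries labelled CYP1B1-/-, in percent, with the number tested at the right and dashed lines at the share of all tested genes, 17.6% lower and 15.7% higher. Genes of DNA replication and mitosis reach furthest to the right, with 44 of 47 called, and tight junction genes furthest to the left, with 20 of 32.

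Whether the response to HDM differed from that of WT was tested as an interaction of genotype and state. By the same edgeR test, WT libraries differed between HDM and steady state at 6182 genes (38.4%), 3075 higher and 3107 lower. Of the genes higher in the libraries labelled CYP1B1-/-, 2281 were also called higher in WT, which is 90.2% of the former and 74.2% of the WT list. Of the lower genes, 2318 were shared, 81.6% and 74.6% of the respective lists, and no gene was called in opposite directions. Over the 16107 genes the log2 fold changes of the 2 genotypes correlated with a Pearson r of 0.913. This is a description across genes, which are not independent replicates and share the run. The sex-linked transcripts changed in WT as well, with Ddx3y at 72.4 to 82.2 CPM at steady state and no read after HDM. All 23 of 23 tested pan-hematopoietic markers also rose in WT, with a median of 5.33. The parts of HDM, run, sex and hematopoietic cells in the agreement were not tested. For 86.9% of the genes the difference of the effects was under 1 on the log2 scale, with a median size of 0.35.

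The interaction was called at 0 of 16107 genes by the quasi-likelihood test, with 366 genes (2.27%) at an unadjusted p under 0.05. DESeq2, limma voom and the likelihood ratio test also called 0, with 572, 2557 and 463 genes at that unadjusted p. The gene of lowest p was Pcsk1, a prohormone convertase of neuroendocrine cells, at 5.31, 10.2 and 8.72 CPM at steady state and 27.3, 16.3, 4.10 and 24.5 CPM after HDM in the libraries labelled CYP1B1-/- (log2 1.15, SE 0.44), against a log2 fold change of -1.42 (SE 0.42) in WT. The difference was 2.57 (SE 0.61), with an unadjusted p of 0.000337 and an adjusted p of 0.999664 by edgeR. HDM library 3 held less Pcsk1 than any steady-state library, and without it the difference was 2.91 and the only one called (adjusted p 0.0448). Pim3, a serine/threonine kinase, had log2 fold changes of -2.65 and, in WT, -0.46 (difference -2.20, SE 0.58), with steady-state library 2 at 488 CPM and the others at 119 and 171 CPM. Hist1h1c, a linker histone, had -1.54 and -0.13 (difference -1.41, SE 0.38). The other 7 of the 10 lowest p were F830016B08Rik, Nid2, Spef2, Ugt2b38, Klf2, Cfap161 and Hectd2, with differences between -2.32 at Nid2, a basement membrane protein, and 4.14 at Ugt2b38, a glucuronosyltransferase with under 1 CPM in these 7 libraries.

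Both effects are given side by side for genes that led the comparison. Retnla had a log2 fold change of 7.72 (SE 1.18) in WT and a difference of 0.76 (SE 1.33), Clca1 a difference of 0.14 (SE 1.44), Ccl20 of 0.12 (SE 1.95) and Il33 of 0.62 (SE 1.06). Ahr differed by -0.37 (SE 0.46) and Tiparp, with an unadjusted p of 0.0394, by -1.30 (SE 0.60) on a WT log2 fold change of -1.28. Among the lists the medians lay furthest apart at basal cells, 3.02 against 0.32 in WT, at type 2 cells, 3.28 against 1.71 (16 and 10 of 18 called higher), and at neuroendocrine cells, 0.77 against -0.72. No member of the 3 lists had a called interaction by edgeR, and 6 of 11 neuroendocrine, 3 of 10 basal and 0 of 18 type 2 markers had an unadjusted p under 0.05, against 2.27% of all tested genes. These lists were picked for their distance from WT, and Pcsk1 is on the neuroendocrine list, so the counts are not separate evidence. HDM library 3 stood low for the neuroendocrine markers, with a mean log2 CPM of 0.31 against 2.42 to 2.79 in the other 3.

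**Figure D5:**
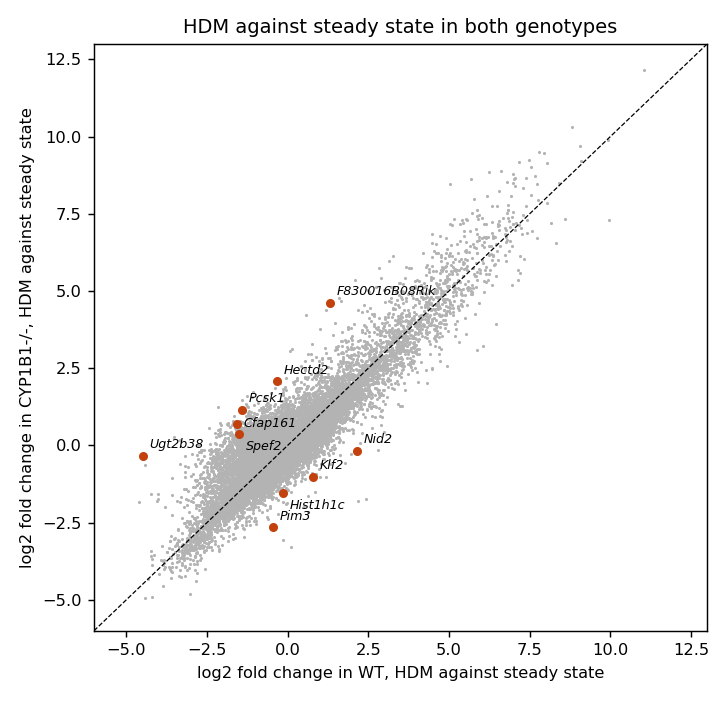
Log2 fold change after HDM in WT (horizontal axis) against that in the libraries labelled CYP1B1-/- (vertical axis) for the 16107 tested genes, 1 point per gene, with the line of equal change and the 10 genes of lowest interaction p named. Pcsk1 lies at -1.42 in WT and 1.15 in the libraries labelled CYP1B1-/-, off the line that most genes follow.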

How the data were processed

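RNA of sorted lung ECs was converted to cDNA by template switching, amplified, tagmented and sequenced on a NextSeq500, with steady-state and HDM libraries in separate runs. Per the labels and the submitters' processing notes, the authors demultiplexed with bcl2fastq 2.19.1, trimmed with bbduk, aligned to mm10 with GSNAP and deposited raw gene counts from featureCounts 2.0.0. The strand setting and the handling of multimapping reads are not given in the sources used here. Amplified reads carry no molecular identifiers.

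The run tables were joined by gene identifier, and 0 columns were left unmatched. Of 54373 genes, 54147 had a GENCODE M21 entry, and 1099 coding genes on chromosomes X and Y were left out. In R 4.3.3, edgeR 4.0.16 with limma 3.58.1 kept genes passing filterByExpr (minimum count 10, minimum total 15), scaled by TMM and fitted all 22 libraries in 6 genotype and state groups with robust quasi-likelihood dispersion. Adjusted p are Benjamini-Hochberg values over the 16107 genes, and SE is the fold change over the root of F. CPM use effective library sizes and log2 a prior count of 1. The alternatives included DESeq2 1.42.0, voom, other filters and scalings, covariates and left-out libraries. Of these, leaving out HDM libraries 3 and 4, leaving out 1 and 2, and scaling on pan-epithelial markers were chosen after seeing the data. Groups come from the labels, which do not say whether a library is 1 mouse or a pool, so p-values measure only the spread between these samples, which may be technical. Same-numbered steady-state and HDM libraries correlated by 0.024, -0.055 and 0.103, so the numbers were not taken as pairs.

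Named genes were, among called genes without overlap and with a mean of at least 5 CPM in a group, the 12 of lowest p and the 8 of largest change in each direction, leaving out predicted genes and antigen receptor segments; the up to 4 members of lowest p of each list in each direction; any AhR or type 2 list member; the 10 lowest interaction p; and Ahr, Cyp1a1, Cyp1a2, Cyp1b1, Epcam, Ptprc, Pecam1, Il33, Il1b, Rab4a, Srbd1 and Rell1. The genes and lists were chosen with earlier results of these data known. RefSeq windows matched 12497 of the tested genes, under 80%, so a comparison of motifs between called groups was void. Some members of the lists are not reported by name here.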

Additional observations from a re-analysis of the deposited data

Results flagged for a closer look

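Among 189 named genes, 35 lists and 4 library summaries, single HDM libraries labelled CYP1B1-/- stood apart from the other 3 in 5 cases. Chance alone gives about 1 in 20 groups, which is more than these 5. Cldn4 was at 44.98 CPM in HDM library 2 against 10.48 to 13.39 in the others, and Tgtp1 at 25.48 CPM in library 3 against 14.96 to 15.78. HDM library 3 was lowest at Calca, with 4.411 CPM against 25.43 to 33.73, and at Resp18, a neuroendocrine secretory granule protein, with 3.01 CPM against 15.09 to 17.79. Its mean log2 CPM over the neuroendocrine markers was 0.3078 against 2.417 to 2.786. Calca and Resp18 are on that list, so these cases are not independent.

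Outside the comparison, Xist was at 95.58 CPM or more in every HDM library labelled CYP1B1-/- and at 0.7217 to 2.009 CPM at steady state. Immunoglobulin genes reached 1.043% of the counts in an HDM library. Of 6974 tested genes outside the protein-coding class, 1255 were called, 960 higher and 295 lower after HDM, by the same edgeR test.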

How the results depend on the processing

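The 5370 calls of HDM against steady state ranged from 3749 to 6520 under the other filters, scalings and tools and the left-out pairs of libraries, and from 4237 to 5774 with single libraries left out. The 6182 calls in WT ranged from 5296 to 6554 with single libraries left out. The counts moved most with a covariate in the fit: 55 with the hematopoietic marker score (2409 at an unadjusted p under 0.05) and 241 with the Y-linked Ddx3y flag (3031), and in WT 6 and 39. The fit with the replicate number as a block gave 5236 calls and lost 6 of the 189 named genes, 0 of them reversed. The interaction count was 0 to 1 with single libraries left out, the 1 being Pcsk1 without HDM library 3. Under the covariates 34 and 48 of the named genes kept direction and side of the threshold, and under each other setting that tested all 189 at least 174 did.

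Of the called genes named, the sign turned with the hematopoietic covariate, in log2 fold change, at Il1b (-2.46), Il1rl1 (-0.0465), Ptprc (-0.41), Pecam1 (-1.17) and Aldh1a1 (0.25), and in the medians of B and plasma cell (-0.92), granulocyte (-1.47), endothelial (-0.0504), alarmin (-0.10), lipid (-0.17) and immediate early genes (-0.51). With the Y-linked covariate it turned at called genes Chil3 (-0.51), Cldn3 (-0.44), Nectin4 (-0.90), Aldh1a7 (-0.0889), Nfkbiz (-0.00239) and Dclk1 (-0.56), and in the medians of T and NK cell (-0.0903), granulocyte (-0.34), lipid (-0.46), immediate early (-0.49) and ion transport genes (-0.39). Without HDM libraries 1 and 2 it turned at the called gene Muc5b (-0.35) and in the endothelial median (-0.0841). In these 3 fits the sign also turned at 4, 4 and 2 named genes that were not called. Ptprc is itself on the marker list behind the hematopoietic score, so its loss in that fit follows from the score. The cause of the other changes was not tested. With 3 and 4 libraries, 2 of them with most reads on predicted genes, 4720 of the 5370 calls had a fold change of at least 1 on the log2 scale.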

Other observations

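Immediate early and stress genes rose at 17 and fell at 5 of 35 tested members, against 15.7% and 17.6% of all tested genes. Ier2, an immediate early regulator, was at 10.8, 11.2 and 5.59 CPM at steady state and 80.01, 71.6, 80.9 and 127 CPM after HDM (log2 3.29, SE 0.65, adjusted p = 0.000436), and Nfkbiz, an inducible nuclear IκB protein, at 5.02, 5.91 and 4.09 CPM and 38.8, 39.7, 31.1 and 31.5 CPM (log2 2.81, SE 0.52, adjusted p = 0.000231). Both were well above steady state in all 4 HDM libraries. Ier3 moved the other way, from 558 ± 181 CPM to 111 ± 41.8 CPM (log2 -2.33, SE 0.39, adjusted p = 9.99e-05). The 17 increases were 11 without HDM libraries 3 and 4, and the 5 decreases were 2 with scaling on epithelial markers, 3 without steady-state library 3 and 8 without HDM library 4. By edgeR with the hematopoietic covariate 0 of 35 were called (10 at an unadjusted p under 0.05), with Ier2 at 1.25, Nfkbiz at 1.58 and Ier3 at -1.72 (adjusted p 0.439, 0.2701 and 0.215). In the unfolded protein response 5 of 32 rose and 9 fell, against 15.7% and 17.6% of all tested genes. Dnajc3, a chaperone of the endoplasmic reticulum, fell from 692 ± 303 CPM to 138 ± 58.6 CPM (log2 -2.33, SE 0.38, adjusted p = 7.08e-05) and Sel1l, of the degradation complex, from 340.3 ± 41.0 CPM to 99.1 ± 28.02 CPM (log2 -1.78, SE 0.28, adjusted p = 5.98e-05), whereas the chaperone Calr rose from 50.3 ± 10.7 CPM to 160.8 ± 76.1 CPM (log2 1.68, SE 0.36, adjusted p = 0.000799). With epithelial marker scaling 3 fell, without HDM libraries 3 and 4 the split was 1 higher and 14 lower, and without HDM library 3 it was 3 and 10. With the hematopoietic covariate 0 were called by edgeR (6 at an unadjusted p under 0.05), and Dnajc3 was at -2.65, Sel1l at -1.93 and Calr at 0.56 (adjusted p 0.0712, 0.08505 and 0.6704).

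Circadian clock genes rose at 1 and fell at 11 of 22. Bhlhe40, a repressor in the clock, was at 4.38, 5.45 and 2.71 CPM at steady state and 113, 84.3, 333 and 306 CPM after HDM (log2 5.64, SE 0.84, adjusted p = 4.39e-05). The clock repressor Cry2 was at 270.4, 108 and 122 CPM and 15.04, 25.4, 6.43 and 21.8 CPM (log2 -3.29, SE 0.43, adjusted p = 1.45e-05), and Tef, a PAR bZIP output factor, fell from 161.4 ± 41.1 CPM to 19.3 ± 14.1 CPM (log2 -3.09, SE 0.59, adjusted p = 0.000302). HDM library 3 was the lowest at 10 of the 11 decreases, against 40% of all genes that fell. The 11 were 5 without HDM libraries 3 and 4 or steady-state library 2, 6 without HDM library 1, and 7 with upper-quartile or epithelial marker scaling, without steady-state library 3 and without HDM library 3, and with the hematopoietic covariate 1 was called, with Bhlhe40 at 2.16, Cry2 at -2.51 and Tef at -1.60 (adjusted p 0.137, 0.0741 and 0.377). Ion and water transport genes rose at 10 and fell at 6 of 24. Cftr, the apical chloride channel, was at 2.65, 1.82 and 1.86 CPM and 29.9, 42.3, 9.44 and 11.2 CPM (log2 3.43, SE 0.68, adjusted p = 0.000475), highest in HDM libraries 1 and 2. Scnn1b, a subunit of the epithelial sodium channel, was at 459, 512 and 531 CPM and 23.6, 70.1, 8.72 and 65.9 CPM (log2 -3.58, SE 0.58, adjusted p = 7.7e-05), and Ano1, a calcium-activated chloride channel, fell from 898 ± 66.1 CPM to 85.6 ± 56.9 CPM (log2 -3.39, SE 0.50, adjusted p = 3.66e-05). Kcne3, a potassium channel subunit, rose from 0.289 ± 0.0763 CPM to 9.59 ± 5.62 CPM (log2 5.06, SE 0.64, adjusted p = 1.02e-05). None of the 24 was called by edgeR with the hematopoietic covariate (11 at an unadjusted p under 0.05), with Cftr at 3.18, Kcne3 at 3.56, Scnn1b at -2.10 and Ano1 at -1.99 (adjusted p 0.1055, 0.0591, 0.247 and 0.183).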
